A study of Mus musculus with 8 samples.

Results

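The insulin-like growth factor (IGF) family is described here by 10 genes, the ligands *Igf1* and *Igf2*, the receptor *Igf1r* and the binding proteins *Igfbp1* to *Igfbp7*, of 22180 genes with a transcript cluster of their own on the array. The 10 genes were chosen by their symbols in the array annotation. A gene with more than 1 cluster is given by its brightest one, averaged over the 8 arrays, but each of the 10 had exactly 1 cluster of its own, so no signal value decided between clusters. The family was picked with earlier results of this same contrast known, so the calls below are the values of a fit over all clusters and not independent support for a response of the family.

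The arrays measured O9-1, an immortalized mouse line of cranial neural crest cells (cNCCs), the cells that build much of the facial mesenchyme. After 24 h of attachment the medium was changed to DMEM with 1% FBS, in 4 cultures with SHH-N peptide, the amino-terminal signaling part of Sonic hedgehog, at 0.4 μg/mL and in 4 vehicle-only cultures, and RNA was taken at 48 h. The labels call the 4 cultures of a treatment biological replicates, all of them come from the same line, and each was hybridized to its own Affymetrix Mouse Gene 2.0 ST array. The question was which genes of cNCCs respond to Shh pathway activation.

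IGF1 and IGF2 are secreted hormones that bind the receptor tyrosine kinase IGF1R, which passes the signal through IRS adaptors to PI3K and Akt and supports growth and survival of embryonic tissues. The IGF binding proteins are secreted carriers that hold the ligands in the extracellular space, where they can block them, store them or deliver them to the receptor once proteases cleave the carrier. *Igf2* is the main fetal growth ligand in mouse embryos and is imprinted, being expressed from the paternal allele.

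Signals are log2 values per transcript cluster, and the median signal of an array lay between 5.70 and 5.76. Arrays of the same treatment correlated at r between 0.988 and 0.991 and arrays of different treatments at r between 0.980 and 0.984 across clusters. SHH-N replicate 3 stood apart from the other arrays, with -41.8 on the second principal component (11.9% of the variance), where the other 7 arrays lay between -10.9 and 17.4. Without it, no difference of an IGF family gene moved by more than 0.072, and the same 6 calls were made. The Shh feedback genes checked the labels, with *Gli1* at 10.04 ± 0.11 in SHH-N cultures and 5.33 ± 0.21 in vehicle cultures (SD, n = 4 each), and *Ptch1* and *Hhip* higher with SHH-N by 4.39 and 6.84. *Gapdh*, the control gene, differed by -0.04 (adjusted p = 0.722). Of 11 measured markers of cranial neural crest mesenchyme, 10 had both treatment means above the median signal of every array, the exception being *Alx1* at 4.85 in SHH-N cultures and 4.98 in vehicle cultures. The same held for 3 of 4 neuron, 2 of 2 glia, 2 of 4 muscle and 2 of 6 epithelial markers. It also held for 1 of 6 endothelial, 1 of 6 leukocyte and 1 of 4 hepatocyte markers. A signal above the array median is thus not particular to neural crest markers.

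Of the 10 genes, 5 were called higher with SHH-N at an adjusted p under 0.01 (*Igf2*, *Igfbp3*, *Igfbp4*, *Igfbp5* and *Igfbp7*), against 2.97% of all 41345 transcript clusters. *Igf1* was called lower, where 3.51% of all clusters were, and *Igf1r*, *Igfbp1*, *Igfbp2* and *Igfbp6* were not called. Calls in either direction made up 6.48% of all clusters and 12.0% of the clusters whose mean lay above the median of all clusters, a class that is nearer to these genes, 8 of which had both treatment means above the median signal of every array. For 7 of the 10 genes no value of a treatment lay within the range of the other, as was so for 18.6% of all clusters. The median difference, SHH-N minus vehicle, was 0.36 over the 10 genes, 0.66 over the 7 binding protein genes and -0.01 over all clusters. These are bulk cultures, so fewer cells of a type and less RNA per cell cannot be told apart in any of the differences.

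**Figure D1:**
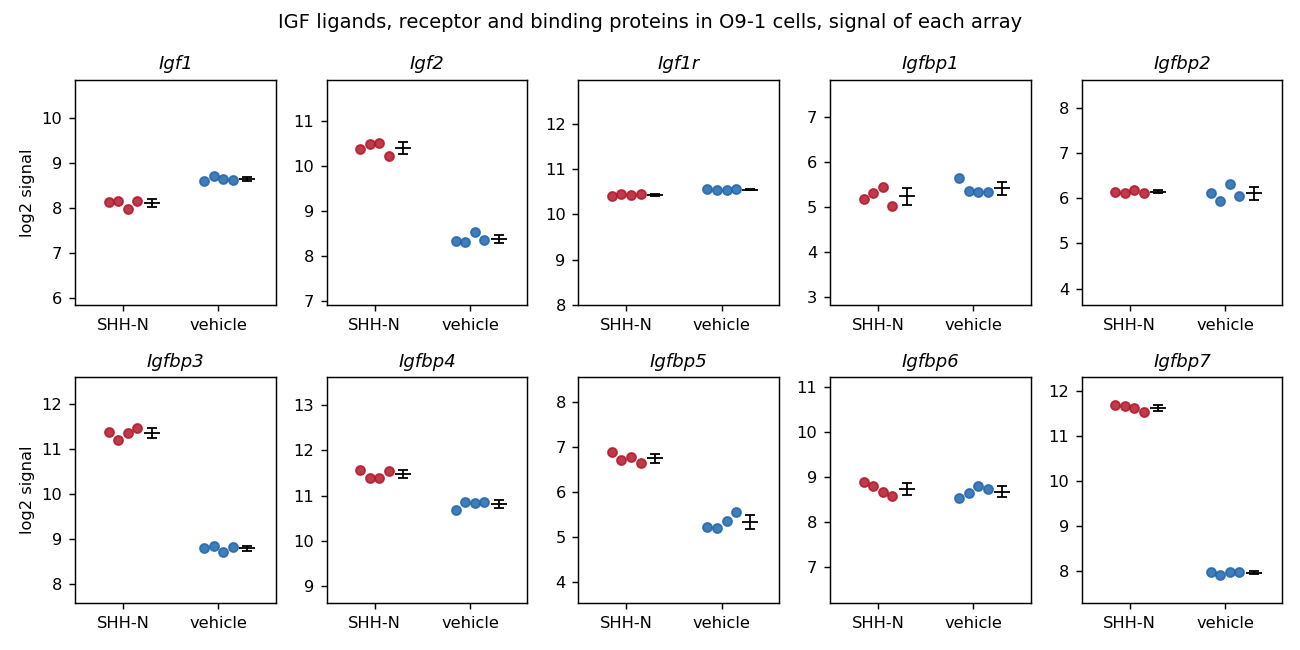
Log2 signal (y axis) of the 10 IGF family genes on each of the 8 arrays, SHH-N left and vehicle right in each panel, with the mean and SD of 4 arrays beside the points. All panels span the same number of log2 units around different centres, and the points of *Igf2*, *Igfbp3*, *Igfbp5* and *Igfbp7* form well separated groups while those of *Igfbp1*, *Igfbp2* and *Igfbp6* overlap.

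The ligands moved in opposite directions. *Igf2* had log2 signals of 10.37, 10.49, 10.51 and 10.23 in the SHH-N cultures, against 8.34, 8.32, 8.53 and 8.35 in the vehicle cultures. Every SHH-N culture lay above every vehicle culture, and the spread within a treatment (SD 0.13 with SHH-N and 0.10 with vehicle) was small beside the distance between them. The difference was 2.01 (SE 0.08, 95% interval 1.82 to 2.20), a 4.04-fold rise (interval 3.53 to 4.61) at an adjusted p of 2.35e-06 in limma. An exact permutation test over the 8 arrays, two-sided, gave p = 0.0286, which is the smallest p that 4 against 4 arrays allow and is the same for each gene whose treatments do not overlap.

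*Igf1*, the ligand that carries much of the growth hormone response after birth, had log2 signals of 8.14, 8.16, 7.99 and 8.16 in the SHH-N cultures, against 8.61, 8.71, 8.64 and 8.62 in the vehicle cultures. The groups did not overlap, and SHH-N replicate 3 was the lowest of all. The difference was -0.53 (SE 0.06, interval -0.68 to -0.39), with the vehicle level 1.45-fold that of SHH-N cultures (adjusted p = 6.54e-04). The opposite signs of the ligands do not give the total amount of ligand message, because the signals of different probes are not on a common scale.

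*Igf1r*, the receptor of both ligands, had log2 signals of 10.40, 10.44, 10.44 and 10.46 in the SHH-N cultures, against 10.56, 10.53, 10.55 and 10.57 in the vehicle cultures. All SHH-N values lay just under all vehicle values, within a narrow range. The difference of -0.12 (SE 0.05, interval -0.23 to -0.01) was not called (adjusted p = 0.185), and its interval corresponds to an SHH-N level between 0.854-fold and 0.996-fold that of vehicle cultures. The call depended on the variance model: with the variance of the single cluster alone, the unmoderated comparison gave an adjusted p of 0.00439.

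Among the binding proteins, 4 of 7 were called higher and none lower. *Igfbp7*, which encodes a secreted matrix protein of blood vessels and stroma that binds insulin-like growth factors weakly, was the gene of the family with the largest difference. The 250 bases before its start on the minus strand of chr5:77408046-77408295 (RefSeq, GRCm38.p6) are shown because they precede the gene that moved most, 5′ to 3′, with CpG dinucleotides in capitals.
Igfbp7 promoter: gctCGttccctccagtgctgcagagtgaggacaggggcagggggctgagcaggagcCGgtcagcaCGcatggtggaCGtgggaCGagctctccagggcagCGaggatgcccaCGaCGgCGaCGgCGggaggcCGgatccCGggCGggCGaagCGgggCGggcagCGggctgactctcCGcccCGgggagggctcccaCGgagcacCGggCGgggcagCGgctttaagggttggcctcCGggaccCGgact
*Igfbp7* had log2 signals of 11.68, 11.65, 11.61 and 11.53 in the SHH-N cultures, against 7.98, 7.90, 7.99 and 7.98 in the vehicle cultures. The groups were tight, with SDs of 0.07 with SHH-N and 0.04 with vehicle, and lay farther apart than those of any other gene of the family. The difference was 3.65 (SE 0.06, interval 3.52 to 3.79), a 12.6-fold rise (interval 11.5 to 13.8, adjusted p = 2.57e-08), which placed it at rank 8 among all 41345 clusters ordered by rise.

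*Igfbp3* encodes the main carrier of IGFs in adult serum. Its upstream sequence is shown for comparison with that of *Igfbp7* (minus strand, chr11:7213924-7214173, GRCm38.p6). These genes had the largest rises of the family, and both starts lie in CpG-rich sequence. The *Igfbp3* start used here lies inside the RefSeq span of the gene (7206086 to 7215498), so it is not the outermost start.
Igfbp3 promoter: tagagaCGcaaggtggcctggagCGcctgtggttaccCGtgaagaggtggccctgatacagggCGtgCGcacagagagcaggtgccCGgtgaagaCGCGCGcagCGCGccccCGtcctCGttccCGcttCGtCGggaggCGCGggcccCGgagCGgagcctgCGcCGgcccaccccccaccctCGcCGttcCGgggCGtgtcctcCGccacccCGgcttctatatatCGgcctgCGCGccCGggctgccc
*Igfbp3* had log2 signals of 11.38, 11.19, 11.35 and 11.45 in the SHH-N cultures, against 8.80, 8.84, 8.71 and 8.83 in the vehicle cultures. The groups lay far apart, with SDs of 0.11 in SHH-N cultures and 0.06 in vehicle cultures. The difference was 2.55 (SE 0.07, interval 2.39 to 2.71), a 5.85-fold rise (interval 5.23 to 6.54, adjusted p = 3.47e-07) at rank 27 among all clusters.

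*Igfbp5* encodes a carrier that binds extracellular matrix and is abundant in bone and connective tissue. Its upstream sequence is shown as a contrast to those of *Igfbp7* and *Igfbp3*, since it has far fewer CpG dinucleotides although the gene also rose (minus strand, chr1:72874866-72875115, GRCm38.p6).
Igfbp5 promoter: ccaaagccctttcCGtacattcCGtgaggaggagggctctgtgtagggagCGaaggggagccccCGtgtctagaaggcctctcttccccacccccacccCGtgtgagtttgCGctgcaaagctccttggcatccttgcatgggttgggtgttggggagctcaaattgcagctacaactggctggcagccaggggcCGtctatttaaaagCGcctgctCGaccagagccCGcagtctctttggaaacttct
*Igfbp5* had log2 signals of 6.88, 6.72, 6.77 and 6.65 in the SHH-N cultures, against 5.23, 5.20, 5.36 and 5.56 in the vehicle cultures. The vehicle values lay below the median signal of every array and the SHH-N values above it. The difference was 1.41 (SE 0.09, interval 1.20 to 1.63), a 2.67-fold rise (adjusted p = 2.72e-05), and where the vehicle signal is background this fold is a lower bound.

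*Igfbp4* encodes a carrier that the protease PAPP-A cleaves. It had log2 signals of 11.56, 11.39, 11.39 and 11.54 in the SHH-N cultures, against 10.68, 10.85, 10.83 and 10.86 in the vehicle cultures. The groups did not overlap, although the step was smaller than for the other binding proteins that rose. The difference was 0.66 (SE 0.07, interval 0.50 to 0.82), a 1.58-fold rise (adjusted p = 4.16e-04).

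The other binding proteins were not called. *Igfbp6*, whose protein prefers IGF2 over IGF1, had log2 signals of 8.88, 8.78, 8.67 and 8.58 in the SHH-N cultures, against 8.53, 8.64, 8.79 and 8.74 in the vehicle cultures, with overlapping groups and a difference of 0.05 (interval -0.15 to 0.26, adjusted p = 0.774). *Igfbp2*, a carrier of embryonic tissues and later of brain and liver, had 6.15, 6.13, 6.18 and 6.11 in the SHH-N cultures, against 6.13, 5.95, 6.31 and 6.06 in the vehicle cultures, and differed by 0.03 (interval -0.15 to 0.22, adjusted p = 0.861). *Igfbp1*, a carrier made chiefly by liver and decidua, had 5.18, 5.32, 5.46 and 5.02 in the SHH-N cultures, against 5.64, 5.36, 5.34 and 5.34 in the vehicle cultures, all below the median signal of the arrays, and differed by -0.18 (interval -0.43 to 0.08, adjusted p = 0.397). The 95% intervals of *Igfbp2* and *Igfbp6* do not reach the difference of *Igfbp4*.

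**Figure D2:**
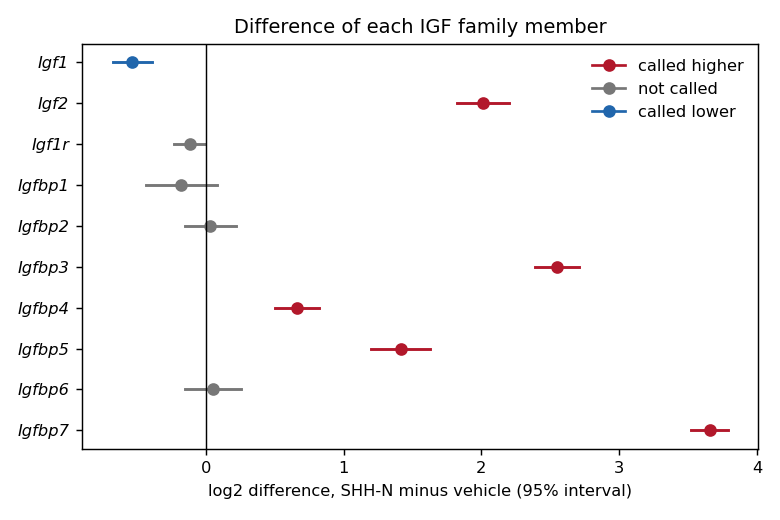
Difference in log2 signal, SHH-N minus vehicle (x axis), of each IGF family gene (rows), with the 95% interval of the fit over 4 arrays per treatment as a line. Red points were called higher, the blue point lower and grey points were not called, and the rises run from 0.66 for *Igfbp4* to 3.65 for *Igfbp7*.

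*Igfbp1* and *Igfbp3* lie next to each other on chromosome 11, and *Igfbp2* and *Igfbp5* on chromosome 1, with 0 annotated genes between them in RefSeq. In these pairs *Igfbp3* was called higher with a difference of 2.55 while *Igfbp1*, with both means below the median signal of the arrays, was not called at -0.18, and *Igfbp5* was called higher with a difference of 1.41 while *Igfbp2* was not called at 0.03. The difference of *Igfbp3* exceeded that of *Igfbp1* by 2.73, and the difference of *Igfbp5* exceeded that of *Igfbp2* by 1.38. An exact permutation test gave p = 0.0286 for each pair, the smallest p that these arrays allow. The pairs were picked after their values had been seen, so these p-values are descriptions and not independent support.

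All 10 genes matched the RefSeq promoter table, with 14 windows of 300 bases (250 before to 50 after a start), 4 of them for *Igf2* and 2 for *Igfbp2*. The windows of *Igf1*, *Igfbp3* and *Igfbp4* lie inside the RefSeq spans of these genes, so they do not cover the outermost start. The Gli core motif GACCACCCA, searched on both strands, was in none of the 14 windows and in 0.253% of all 32851 windows, and the form GACCNCCCA with any base in the middle, which covers the core motif too, was in none of the 14 and in 0.977% of all. An absent match says only that these letters are not in these windows. A window held a median of 7 CpG dinucleotides over all promoters. The windows of the genes that rose had 37 for *Igfbp3* (5.58% of all windows have as many), 33 for *Igfbp7* (8.56%), 27 for *Igfbp4* (15.5%), 10 for *Igfbp5* (43.5%) and between 2 and 24 for the starts of *Igf2*, and *Igf1*, which fell, had 6, while *Igf1r*, which was not called, had 48. Genes that rose were thus found with CpG-rich starts and with starts near the median.

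**Figure D3:**
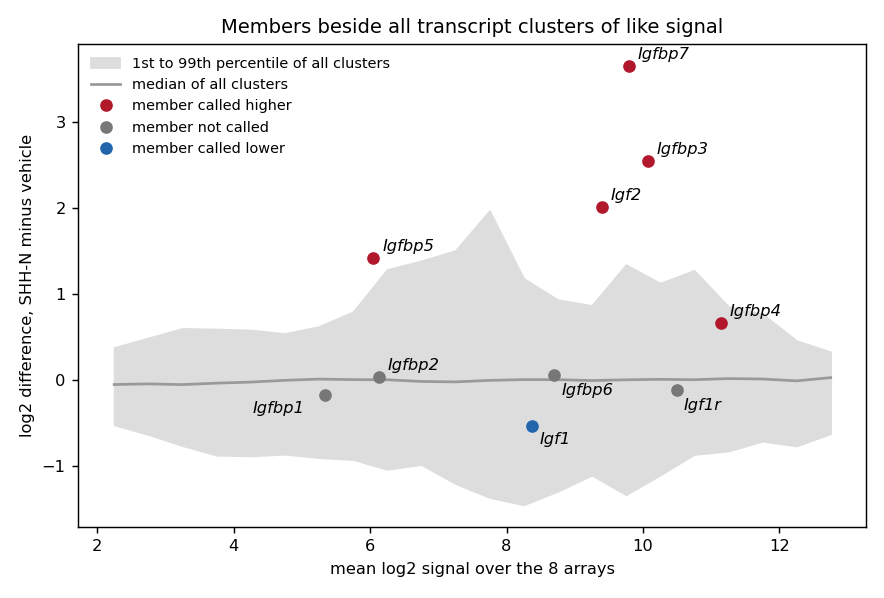
Difference in log2 signal, SHH-N minus vehicle (y axis), against the mean log2 signal over the 8 arrays (x axis), with the 10 IGF family genes as points and all clusters of like signal as a grey band between low and high percentiles with their median as a line. *Igfbp7*, *Igfbp3*, *Igf2* and *Igfbp5* lie above the band and the other 6 genes within it, *Igf1* at -0.53 among them.

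The genes whose pattern was most like that of *Igfbp7* over the 8 arrays were *Enc1* (Pearson r = 0.9997), *Slc40a1* (r = 0.9995) and *Slc16a10* (r = 0.9994), with differences of 1.72, 2.67 and 1.97. Those most like *Igf1* were *Copb2* (r = 0.997), the dimmer cluster of *Irs1* (r = 0.995) and *Arhgap29* (r = 0.995), with differences of -0.29, -1.04 and -0.38. These likenesses rest on 8 arrays that fall into 2 treatments, so they are descriptions of a shared step and no test.

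Around the family, 88 of 96 listed genes of the IGF pathway were measured, of which 13 were called higher, 17 lower and 58 not, with a median difference of -0.05. The calls made up 34.1% of these genes, 76 of which had both treatment means above the median signal of every array, beside 12.0% of all clusters with a mean above the median. The share was 60.0% for the proteases and their inhibitors, 41.7% for the list with an IGFBP-type domain, 31.8% for the adaptors and brakes and 12.0% for PI3K, Akt and mTOR, and the lists of 4 or 5 genes are too short for a share to be read. These lists were chosen with earlier results known, so the shares are a description. Among the other ligands, receptors and carriers, 1 of 5 measured genes was higher and 1 lower. *Igf2r*, the receptor that takes up and degrades IGF2, had log2 signals of 10.78, 10.88, 10.95 and 10.76 in the SHH-N cultures, against 10.26, 10.34, 10.27 and 10.28 in the vehicle cultures, a difference of 0.55 (SE 0.06, adjusted p = 4.89e-04). *Insr*, the insulin receptor, which also binds IGF2 in its fetal form, had 8.65, 8.66, 8.65 and 8.75 in the SHH-N cultures, against 9.13, 9.11, 9.19 and 9.15 in the vehicle cultures, a difference of -0.47 (SE 0.05, adjusted p = 5.65e-04). *Ins2*, the insulin gene that neighbours *Igf2*, averaged 4.11 in SHH-N cultures and 3.95 in vehicle cultures and was not called (adjusted p = 0.614).

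The proteases that cleave binding proteins, with their inhibitors, held 15 measured genes, 3 higher, 6 lower and 6 not called, with a median of -0.37. *Pappa*, which encodes PAPP-A, a protease that cleaves IGFBP4, had log2 signals of 6.44, 6.28, 6.79 and 6.40 in the SHH-N cultures, against 7.92, 7.85, 7.90 and 7.89 in the vehicle cultures, and fell by 1.41 (adjusted p = 5.53e-05). *Stc1*, whose protein stanniocalcin-1 inhibits PAPP-A, had 6.70, 6.22, 6.58 and 6.18 in the SHH-N cultures, against 8.87, 9.12, 9.13 and 9.00 in the vehicle cultures, and fell by 2.61 (adjusted p = 6.01e-06). The genes of a protease and of an inhibitor of it were thus both lower with SHH-N, while *Igfbp4*, the gene of a substrate, was higher. *Htra1*, a serine protease with an IGFBP-type domain, fell by 1.71 with means of 8.52 in SHH-N cultures and 10.23 in vehicle cultures, and the metalloproteinase gene *Adamts1* fell by 2.04 with means of 9.88 in SHH-N cultures and 11.92 in vehicle cultures. The remaining calls, named after their values had been seen, were rises of *Mmp9* (0.96), *Ctsd* (0.76) and *Adam12* (0.74) and falls of *Plau* (-1.19) and *Mmp2* (-0.28). The call of *Mmp2* was lost whichever of the 8 arrays was left out (adjusted p 0.0184 to 0.0283).

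The list of other genes that encode an IGFBP-type domain, which leaves out *Htra1* because that gene is counted among the proteases, had 1 of 12 genes higher, 4 lower and 7 not called. *Ccn3*, a matricellular protein, had log2 signals of 6.71, 6.77, 6.70 and 6.71 in the SHH-N cultures, against 9.79, 9.86, 9.83 and 9.93 in the vehicle cultures, a difference of -3.13 (SE 0.05, adjusted p = 5.03e-08). Its close relatives went both ways, with *Ccn1* at -1.66, *Ccn4* at -0.65 and *Ccn2* at 1.20, the last also higher by 1.01 in its dimmer cluster. *Crim1*, a transmembrane regulator of BMP ligands, had means of 9.16 in SHH-N cultures and 10.25 in vehicle cultures, a difference of -1.10.

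Of 5 measured genes for *Igf2* mRNA binding and regulation, none was higher and 2 were lower. *Igf2bp3*, an RNA-binding protein of the *Igf2* message, had means of 8.17 in SHH-N cultures and 8.79 in vehicle cultures, a difference of -0.62 (adjusted p = 2.46e-04). *Hmga2*, a chromatin protein of embryonic growth, had means of 8.82 in SHH-N cultures and 9.17 in vehicle cultures, a difference of -0.35 at an adjusted p of 0.00967, and this call was lost whichever of the 8 arrays was left out (0.0139 to 0.0323). *Plagl1*, an imprinted zinc finger gene of fetal growth, was not called at -0.20 (adjusted p = 0.106).

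Downstream of the receptor, the adaptors and brakes held 22 genes, 5 higher, 2 lower and 15 not called, with a median of 0.05. *Irs1*, the docking protein of the IGF1 receptor, had log2 signals of 8.64, 8.62, 8.53 and 8.70 in the SHH-N cultures, against 9.84, 10.02, 9.94 and 9.97 in the vehicle cultures, a difference of -1.32 (adjusted p = 5.04e-06), and its dimmer cluster differed by -1.04. *Irs2*, its closest relative, was not called at -0.19 (adjusted p = 0.111). *Socs1*, which targets IRS proteins and cytokine receptors, had means of 8.61 in SHH-N cultures and 7.13 in vehicle cultures and rose by 1.48 (adjusted p = 5.04e-05). *Grb10*, an adaptor that inhibits the insulin and IGF1 receptors, had 11.49, 11.50, 11.53 and 11.53 in the SHH-N cultures, against 10.66, 10.76, 10.73 and 10.69 in the vehicle cultures, and rose by 0.80 (adjusted p = 2.19e-05). *Gab2*, a docking protein for PI3K, rose by 0.88, and the remaining calls, named after their values had been seen, were rises of *Gab1* (0.56) and *Grb14* (0.34) and a fall of *Socs3* (-0.71). The call of *Grb14* was lost whichever of the 8 arrays was left out (adjusted p 0.0163 to 0.0333).

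Of the PI3K, Akt and mTOR genes, 2 of 25 were higher and 1 lower, the same share as among all clusters above the median signal (12.0%), with a median difference of -0.07. *Pik3r3*, a regulatory subunit of PI3K, had log2 signals of 8.14, 7.83, 7.90 and 7.77 in the SHH-N cultures, against 5.62, 6.25, 5.90 and 5.91 in the vehicle cultures, a difference of 1.99 (SE 0.14, adjusted p = 3.54e-05). *Pik3r1*, another regulatory subunit, rose by 0.73, and *Eif4ebp1*, the translation brake that mTOR phosphorylates, fell by 0.76. *Akt1*, *Akt2* and *Mtor* differed by -0.04, -0.03 and 0.00, and the uncalled genes of this list ranged from -0.44 (*Pik3cd*) to 0.14 (*Gsk3b*). Of 4 FoxO factors, a family with members that Akt keeps out of the nucleus, *Foxo3* fell by 0.77 with means of 7.46 in SHH-N cultures and 8.23 in vehicle cultures. *Foxo6* rose by 0.44 (adjusted p = 0.00260), a call that was lost without vehicle replicate 1, 3 or 4 (adjusted p at most 0.0114).

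**Figure D4:**
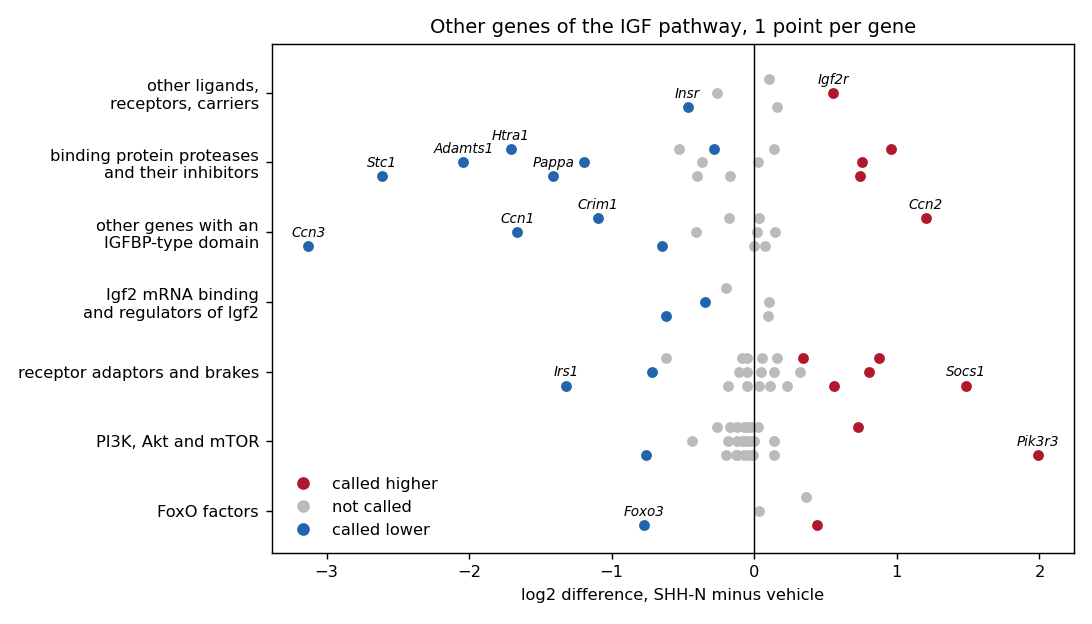
Difference in log2 signal, SHH-N minus vehicle (x axis), of 88 other genes of the IGF pathway, 1 point per gene, in rows by function, with called genes in red (higher) and blue (lower). The falls of *Ccn3*, *Stc1*, *Adamts1*, *Htra1* and *Irs1* lie at the left, the rise of *Pik3r3* at the right, and most PI3K, Akt and mTOR genes lie close to 0.

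Of the cranial neural crest markers, 3 were called higher (*Ets1* 1.07, *Dlx2* 0.38, *Pdgfra* 0.32) and 4 lower (*Snai2* -1.53, *Tfap2a* -0.98, *Prrx1* -0.62, *Prrx2* -0.42), and their summed signal, as a log2 value, was 13.7 in every SHH-N culture and 14.0 in every vehicle culture. Of 6 measured epithelial markers, *Cdh1* was called higher (8.12 in SHH-N and 6.35 in vehicle cultures), with a summed level of 8.93 to 9.08 in SHH-N cultures and 8.12 to 8.33 in vehicle cultures. *Epcam* (0.12), *Krt8* (0.14), *Krt18* (0.02), *Krt14* (-0.08) and *Esrp1* (-0.04), the other 5 markers, were not called, and the dimmer cluster of *Cdh1* was not called at 0.19. Of 6 endothelial markers, *Cdh5* was called higher (6.08 in SHH-N and 5.40 in vehicle cultures), with a summed level of 7.89 to 8.06 in SHH-N cultures and 7.71 to 7.83 in vehicle cultures. None of the measured markers of leukocytes (6), muscle (4), neurons (4), glia (2) and hepatocytes (4) was called. The summed level of the leukocyte markers was 8.14 to 8.19 in SHH-N cultures and 8.21 to 8.29 in vehicle cultures, without overlap, and those of the other 4 lists overlapped between the treatments. Each sum adds signals of different probes, which are not on a common scale, so the brightest markers weigh most. A sum is therefore not an amount of a cell type. The part of these marker changes in the differences of the IGF family was not tested.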

How the data were processed

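The RNA of each of 8 cultures was read on its own Affymetrix Mouse Gene 2.0 ST array. Per the labels and methods, the authors used GCOS, Expression Console and, for their own tests, Transcriptome Analysis Console 2.0. Their deposited matrix holds normalized log2 signals, 1 per transcript cluster and array. The algorithm and the genome build are not given in the sources used here. All signals were used as deposited, without a filter on dim clusters, and the number of arrays limits the precision.

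All 41345 clusters were fitted with limma 3.58.1 (R 4.3.3), SHH-N minus vehicle, with calls at an adjusted p (Benjamini-Hochberg) under 0.01, the threshold of the study's methods. Symbols came from the array annotation (23521 clusters with 1 symbol, 1820 with several, 16004 with none), and promoters from RefSeq. The 10 genes, the pathway lists and the markers were chosen with earlier results of these data known. Named by rule are all 10 genes, up to 4 called genes per pathway list (all where 5 or fewer), the controls, and the 3 genes most like the largest rise and the largest fall. The remaining calls, named after their values had been seen, lie outside this rule. The uncalled *Ins2*, *Plagl1*, *Irs2*, *Akt1*, *Akt2* and *Mtor* lie outside it too. The neighbouring pairs and CpG counts were chosen after the values were seen. The fit was tested on simulated data. Protein sequences were not used here. Alternatives were an unmoderated two-sample comparison, other variance models, normalizations and filters, a replicate block, each array left out, and other thresholds.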

Additional observations from a re-analysis of the deposited data

Results flagged for a closer look

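In 6 of 64 groups of 4 arrays examined, 1 array lay far from the other 3 by Dixon's ratio, the gap to the nearest array over the range. The nominal rate of this rule is about 1 in 20 groups, and its rate in these data was not measured. *Igf1* was 7.99 in SHH-N replicate 3, with the other SHH-N cultures between 8.14 and 8.16, and *Insr* was 8.75 in SHH-N replicate 4, with the others between 8.65 and 8.66. *Igf2* was 8.53 in vehicle replicate 3, with the others between 8.32 and 8.35. *Igfbp1* was 5.64 in vehicle replicate 1 (others 5.34 to 5.36), *Igfbp4* was 10.68 in the same culture (others 10.83 to 10.86), and *Igfbp7* was 7.90 in vehicle replicate 2 (others 7.98 to 7.99). The calls of *Igf1*, *Igf2*, *Igfbp4*, *Igfbp7* and *Insr* were kept without each of the 8 arrays in turn.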

How the results depend on the processing

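Under 19 other settings, 184 of 189 values of the 10 genes kept their direction and their side of the threshold. Several settings, among them the unmoderated comparison, the filters, the replicate block and the thresholds, cannot change a difference. Under these only the side of the threshold could move. The genes called lower were 2 with the unmoderated comparison (*Igf1r* at 0.00439 beside *Igf1*), 0 with the replicate block and 0 at 1.5-fold or more, and stayed at 1 without each array in turn. All clusters called were 1240 with the replicate block, 4694 at an adjusted p under 0.05 and 1574 at 1.5-fold or more, against 2679. *Igfbp2* turned to -0.020 without vehicle replicate 2 (range -0.020 to 0.10 over the arrays left out).

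Same-numbered cultures did not deviate together, with r between -0.02 and 0.02 over all clusters and between -0.07 and 0.01 over clusters above the median signal. The labels do not say whether the numbers pair the cultures, and these correlations cannot decide it. With the replicate number as a block, *Igfbp4* (adjusted p = 0.0114), *Igf1* (0.0124), *Igf2r* (0.0104) and *Insr* (0.0150) lost their calls, as did *Foxo6*, *Grb14*, *Hmga2*, *Mmp2* and *Socs3*, the family genes called higher were 4, and the pathway genes called were 10 higher and 13 lower. Over all settings, 9 to 14 pathway genes were called higher and 13 to 21 lower, and *Hmga2* had adjusted p-values from 0.00193 to 0.0717.

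The 4 arrays of a treatment limit the precision. Background was not measured in these values, and *Igfbp1* in both treatments and *Igfbp5* in vehicle cultures lay below the median signal of the arrays. Labels name biological replicates of 1 line. The p-values of the fit set each difference against the spread between these replicates, with a variance model that draws on all clusters. They do not reach beyond that line.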
